A study of Mus musculus with 40 samples.

Results

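The genes described here are 40 signalling components of the NF-κB and JAK-STAT pathways: signal transducers, transcription factors and feedback inhibitors that act downstream of interleukin 1 (IL-1), tumour necrosis factor (TNF) and interleukin 6 (IL-6). They were chosen from a list of gene symbols, and 40 of 40 were present among the 55487 genes of the count table. Their values were followed across 40 libraries, by cell type and by treatment.

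The study asked how inflammatory factors act on astrocytes derived from mouse embryonic stem (ES) cells and on motor neurons in contact with them. Both cell types came from an ES cell line that carries eGFP under the Hb9 promoter, B6.Cg-Tg(Hlxb9-GFP)1Tmj/J, and each biological replicate was a vial of these ES cells at a defined passage. ES-astrocytes were matured with forskolin, stimulated for 24 h and overlaid with sorted eGFP-positive ES-motor neurons. Astrocytes and motor neurons of each co-culture were then sorted apart, at about 200 cells per library, and their polyadenylated RNA was sequenced. The astrocyte medium was kept at the overlay. The paper names a small risk that residual factors remained in it, which it holds to be likely negligible. Co-cultures were fixed 24 h after they began, and the time of sorting for RNA was not stated separately.

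There were 5 treatments in each cell type with 4 libraries each, lettered A to D: a control, IL-1α with TNF-α (il1a+tnfa), complement factors C1q and C5 (c1q+c5), IL-1β with IL-6 (il1b+il6) and transforming growth factor β2 (tgfb2). All 10 groups shared the transgenic line, the forskolin-matured astrocytes and the co-culture, so each control was a co-culture as well. As a model, the motor neurons were limited in that the stimuli had been given to the astrocyte layer, and that they were gated on a reporter of 1 promoter. Irradiated mouse fibroblasts were listed among the materials for ES culture and differentiation, and the astrocyte media contained serum. Control and il1a+tnfa libraries carried 1 plate index and the other treatments a second one. The labels do not say what kind of plate this index names, and plate below means libraries that share the index. Comparisons of c1q+c5, il1b+il6 or tgfb2 with control therefore crossed plates, and for these the plate and the stimulus cannot be told apart unless a within-plate value is given.

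In NF-κB signalling, IL-1 and TNF receptors recruit adaptors and kinases that activate the IκB kinase complex, which marks IκB inhibitors for degradation and frees Rel-family dimers to enter the nucleus. Several products of that transcription, among them IκBα and A20, shut the pathway down again. In JAK-STAT signalling, IL-6 family receptors activate Janus kinases that phosphorylate STAT proteins, SOCS proteins act as the feedback inhibitors, and in astrocytes STAT3 is best known for its part in reactive gliosis.

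Depth differed strongly between libraries. Total counts of the 20 astrocyte libraries ranged from 1510823 to 16054290 with a median of 4670241.5, and those of the 20 motor neuron libraries from 6557 to 19717324 with a median of 1213482. Between 2697 and 18259 genes were detected per library. Below 20% of the median total of all libraries stood 9 libraries, and these were motor neuron libraries in each case: all 4 of il1a+tnfa (112775 to 445874 counts), A of c1q+c5 (6557), A of tgfb2 (283205), B and D of il1b+il6 (80315 and 146775) and C of control (240859). In CPM, the count of a gene scaled to the TMM-adjusted library total and the unit used below, 3 counts corresponded to between 0.153 and 202 CPM depending on the library. A value of 0 in a shallow library is therefore a weak limit, and such limits cover counting error only.

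Marker genes were checked against the labels. Of 12 astrocyte markers, 9 had counts in the astrocyte libraries, led by the radial glial lipid-binding protein Fabp7 with a mean of 1426 CPM, while Aqp4, Gfap and Aldh1l1 were at 0 in all 20. The summed level of these markers ran from 1211 to 3468 CPM in astrocyte libraries (median 2235) and from 202 to 1214 CPM in motor neuron libraries (median 813), so that the ranges met only at their ends. All 12 motor neuron markers had counts in both cell types, with Stmn2 the most abundant, and their sum was 3839 to 11814 CPM in motor neuron libraries against 1404 to 3144 CPM in astrocyte libraries. Of 12 motor neuron markers tested, 9 were higher and 0 lower in motor neurons, and of 8 astrocyte markers tested 5 were lower and 1 higher. The marker sums thus followed the labels in direction, while Gfap, Aqp4 and Aldh1l1 were absent from the astrocyte libraries and neuronal transcripts were present in them.

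Other cell types were looked for in the same way. Of 8 proliferation markers, 8 were lower in motor neurons, with sums of 48.0 to 159 CPM against 769.3 to 2004 CPM in astrocytes. Fibroblast or mesenchyme markers had counts for 9 of 10 genes in astrocyte libraries, led by Dcn at a mean of 220.5 CPM, with Postn at 0 and sums from 36.9 to 1118 CPM (median 204). In motor neuron libraries their sums reached at most 5.89 CPM. Of 12 microglia and macrophage markers, Ptprc, Aif1, Tyrobp, C1qa, C1qb and Trem2 were at 0 in all 40 libraries, and the sums reached at most 16.4 CPM in astrocyte and 28.5 CPM in motor neuron libraries. Endothelial markers were at 0 in every motor neuron library and reached 16.7 CPM as a sum in astrocytes, oligodendrocyte-lineage markers reached 45.5 CPM and pluripotency markers 4.13 CPM. The part of these cells in the results below was not tested. In these bulk libraries, fewer cells of a type and less RNA per cell cannot be told apart.

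Detection varied between members. In astrocytes 10 members had counts in all 20 libraries and 27 in at least 10 of them, and Socs1 was at 0 throughout. In motor neurons Socs2 was the 1 member with counts in all 20 libraries, 22 members had counts in at least 10, and Relb, Stat5a and Stat6 were at 0 throughout. Counted by gene and group, 63 of 400 combinations were at 0 in all 4 libraries and another 70 had counts in 1 library of the 4. The median over members of the mean level was 5.85 CPM in astrocytes and 3.12 CPM in motor neurons.

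Levels between genes were compared per kilobase of annotated exon. Pias1, a SUMO ligase that restrains STAT activity, had the highest mean level per kilobase in both cell types, 15.7 CPM per kb in astrocytes and 13.5 CPM per kb in motor neurons. Nfkbia, which encodes IκBα, was next at 14.9 and 10.3 CPM per kb. The third was Chuk, the IκB kinase subunit IKKα, in astrocytes at 7.47 CPM per kb, and the Janus kinase gene Jak1 in motor neurons at 9.72 CPM per kb, where Socs2 (9.17) and Chuk (8.73) were close behind. The libraries of Pias1 spanned 37.6, 96.1 and 236.7 CPM in astrocytes and 0, 85.0 and 173 CPM in motor neurons (lowest, median, highest). Those of Jak1 spanned 0.748, 48.7 and 115.6 CPM in astrocytes and 0, 69.3 and 144.5 CPM in motor neurons. For each of these genes the spread between libraries exceeded the steps between neighbours in the order. At the low end in astrocytes stood Socs1 at 0, Stat6 at 0.00558 and the IAP-family gene Birc3 at 0.0566 CPM per kb, and in motor neurons Relb, Stat5a and Stat6 at 0.

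Motor neurons were compared with astrocytes across the 5 treatments, which entered the fit as a factor. Astrocyte libraries carried the second sequencing index S337 or S339 and motor neuron libraries S338 or S340. Cell type and second index therefore cannot be told apart in this comparison. Of the 40 members 35 passed the filter on low counts, and 2 were called at an adjusted p of at most 0.05 with an absolute log2 fold change above 1: Socs2 was higher and Stat5a lower in motor neurons, where it was at 0, so that it passed the filter only through astrocyte libraries and its call is no support for a change over the members. The 2 are 5.71% of the members tested, against 14.9% of the 13227 genes tested (1972 genes; 3.86% higher and 11% lower), so the share of members called was below the background. DESeq2 called 1 member, Socs2, and 1846 genes. With the 4 control libraries of each cell type alone, edgeR called 0 of 22 members tested and 228 of 10199 genes, and 2 members (Socs2 and Chuk) and 1084 genes had an unadjusted p under 0.05; DESeq2 was not run on these libraries alone. Without the A libraries 3 members were called, Nfkb1 in addition, and without the D libraries 1, Socs2. At an unadjusted p under 0.05 there were 5 members and 3762 genes, 28.4% of those tested. Log2 fold changes were above 0 for 10 members and below 0 for 25, with a median of -0.24 over members and -0.21 over all genes tested.

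Socs2 encodes a SOCS protein induced by cytokine and growth hormone signals that limits STAT5 activation (ENSMUSG00000020027, chr10:95385362-95417180, minus strand). Its levels in astrocytes were 8.18, 32.3 and 59.6 CPM (lowest, median, highest of 20 libraries). In motor neurons they were 67.4, 80.4 and 140.4 CPM. Every motor neuron library lay above every astrocyte library, including the 9 shallow ones, although A of c1q+c5 held 1 Socs2 count. By treatment the motor neuron values in the order A, B, C and D were 111.9, 82.0, 68.8 and 68.5 CPM in control, 106, 79.7, 74.4 and 69.0 in il1a+tnfa, and 67.4, 81.9, 100.2 and 77.4 in c1q+c5. They were 105.4, 78.8, 78.0 and 80.4 CPM in il1b+il6 and 140.4, 93.7, 103 and 80.4 in tgfb2. These groups overlapped with each other, and in 4 of the 5 treatments library A was the highest. The log2 fold change between cell types was 1.46 with a standard error (SE) of 0.21 (edgeR, adjusted p = 2.94e-07). Over the alternatives it ran from 1.35 to 1.65, with adjusted p from 6.03e-11 to 9.07e-05 except for the control libraries alone, where it was 1.63 with an adjusted p of 0.146.

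Stat5a encodes a STAT factor downstream of growth hormone, prolactin and several interleukins (ENSMUSG00000004043, chr11:100859351-100885169, plus strand). It was at 0 in all 20 motor neuron libraries. In astrocytes 196 counts fell in 7 of 20 libraries: 0 in the 4 control libraries, 3.96 CPM in B of il1a+tnfa, and 2.90, 3.41 and 10.01 CPM in B, C and D of c1q+c5. The others were 0.453 and 6.37 CPM in A and D of il1b+il6 and 15.2 CPM in D of tgfb2. The groups overlapped at 0, since 13 astrocyte libraries had no counts either. Against a floor of 3 counts over the motor neuron libraries, Stat5a was at least 36.2-fold lower there, and the edgeR test gave an adjusted p of 0.0103, which has the limit of the filter given above. That call was lost with DESeq2 (adjusted p = 0.809) and with treatment and letter as a block (adjusted p = 0.0531), and Stat5a was not tested with the stricter filter, in the control libraries alone or without the D libraries, where 3 of its 7 astrocyte values lay. Over the alternatives its adjusted p ranged from 0.00979 to 0.809. Stat5a overlaps Stat3 by 72 bases on the opposite strand and is a near-identical paralog of Stat5b, so its counts are uncertain.

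**Figure D1:**
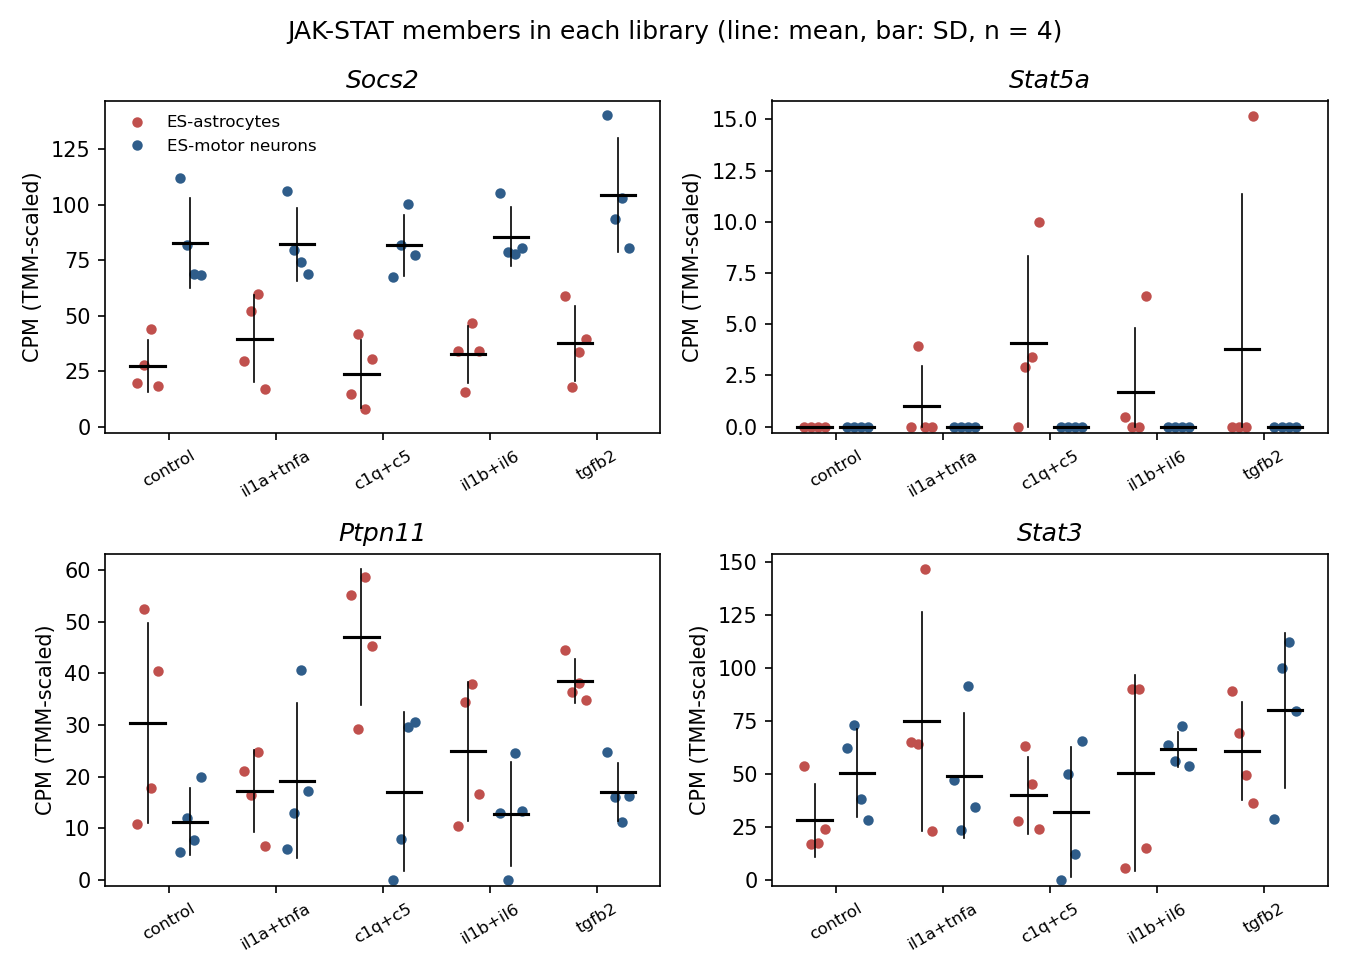
CPM of Socs2, Stat5a, Ptpn11 and Stat3 in each library by treatment, for astrocytes and motor neurons; points are libraries A to D, the line is the mean and the bar the SD (n = 4), with its lower end stopped at 0. Socs2 lay at 67.4 CPM or above in every motor neuron library and at 59.6 CPM or below in every astrocyte library, while Stat5a was at 0 in all motor neuron libraries.

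Among the other JAK-STAT members, Ptpn11 encodes the phosphatase SHP2, which binds activated cytokine receptors (ENSMUSG00000043733, chr5:121130533-121191397, minus strand). Its levels were 6.51, 34.6 and 58.6 CPM in astrocytes and 0, 13.2 and 40.6 CPM in motor neurons (lowest, median, highest). The ranges overlapped widely. Its log2 fold change of -0.89 (SE 0.33) passed the adjusted p of 0.05 in edgeR (0.0486) and not the fold threshold. By adjusted p alone, 3 members and 18.7% of all genes passed. Across alternatives the adjusted p of Ptpn11 ran from 0.00446 to 0.666, and it was 0.394 without the B libraries. Stat5b was at 0, 0.289 and 25.1 CPM in astrocytes and at 0, 0 and 7.80 CPM in motor neurons, with a fitted log2 fold change of -3.08 (edgeR, adjusted p = 0.0594), and was called lower with RLE scaling (edgeR, adjusted p = 0.048). Stat3, the main STAT of IL-6 signalling, was at 5.44, 47.2 and 146.8 CPM in astrocytes and 0, 55.0 and 112.1 CPM in motor neurons. Its log2 fold change was 0.22 (SE 0.29), within the spread of the libraries. The kinases Jak1 (0.59, SE 0.30) and Jak2 (0.14, SE 0.55), and the STAT factor gene Stat2 (-0.16, SE 0.64), did not pass the test either, nor did Pias1 (-0.20, SE 0.21) or the sparser Tyk2 (-0.61). Socs3, the SOCS protein that blocks IL-6 receptor signalling, had 16 astrocyte libraries with counts (0, 3.06 and 27.6 CPM) and 7 motor neuron libraries (0, 0 and 8.61 CPM), with a log2 fold change of -1.93 (edgeR, adjusted p = 0.229). Socs1, a direct inhibitor of Janus kinases, had 10 counts in A of il1b+il6 motor neurons alone and was not tested. Pooled over motor neurons it was at least 6.02-fold higher than in astrocytes against the floor, a limit that rests on that library alone. Stat6, the STAT of IL-4 signalling, had 4 counts in 2 astrocyte control libraries.

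On the NF-κB side no member was called between the cell types in the fit to all libraries. Of the Rel subunits, Nfkb1, which gives p50, was at 0, 0.805 and 43.7 CPM in astrocytes and 0, 0 and 16.7 CPM in motor neurons, and its log2 fold change was -2.28 (edgeR, adjusted p = 0.154). Without the A libraries Nfkb1 was called lower in motor neurons, at -4.62 (edgeR, adjusted p = 0.0125). Nfkb2, the p52 subunit of the non-canonical pathway, was detected in all 20 astrocyte and in 16 motor neuron libraries, at 0.512, 4.34 and 12.95 against 0, 4.71 and 37.6 CPM. The ranges overlapped and its log2 fold change was 0.37 (edgeR, adjusted p = 0.891), which turned to -0.06 without the D libraries. Relb, the partner of p52, had 43 counts in 4 astrocyte libraries and 0 in motor neurons, at least 7.94-fold lower there against the floor, and 4.11-fold without A of c1q+c5, which held 21 of the counts. It failed the filter, and with no filter it was called lower (edgeR, adjusted p = 0.0384). Rela, the main activating subunit, was seen in 13 astrocyte and 10 motor neuron libraries (-0.81, SE 0.99) and Rel in 5 and 6. Of the inhibitors, Nfkbia (ENSMUSG00000021025, chr12:55489410-55492647, minus strand) was at 0, 20.3 and 52.5 CPM in astrocytes and 0, 10.5 and 64.8 CPM in motor neurons, and its log2 fold change was -0.56 (SE 0.46). Nfkbib, a second cytoplasmic inhibitor, was at 0.01 (SE 0.75) on the log2 scale, and Nfkbie was detected in 5 and 6 libraries. Nfkbiz, a nuclear inducible IκB, was above 0 in 5 libraries of each cell type, with at most 9.71 and 7.74 CPM. Bcl3, another nuclear IκB, had counts in 3 astrocyte and 2 motor neuron libraries and was not tested.

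Upstream members were present in both cell types. The IκB kinase genes Ikbkb, Ikbkg and Chuk had counts in all 20 astrocyte libraries and in 18, 18 and 19 motor neuron libraries. Their log2 fold changes were -0.39 (SE 0.32), -0.65 (SE 0.33) and 0.25 (SE 0.33), none past the test. Among the adaptors and kinases that couple receptors to this complex, Tab2 (-0.24, SE 0.32), Map3k7, which encodes TAK1 (-0.09, SE 0.38), Irak1 (-0.39, SE 0.46) and the ubiquitin ligase gene Birc2 (-0.22, SE 0.42) were widely detected. Traf6 (-1.14, SE 0.65) had counts in 18 astrocyte and 10 motor neuron libraries. Irak4, Tab1, Traf2, Ripk1, Tradd and Myd88 were detected in 15, 16, 9, 11, 8 and 6 astrocyte libraries and in 12, 14, 7, 6, 4 and 5 motor neuron libraries. Birc3, a paralog of Birc2, had counts in 3 and 2 libraries, at most 4.87 CPM. Reads shared by the paralogs could make both counts uncertain, which was not tested. Tnfaip3, the gene of the deubiquitinase A20, was above 0 in 5 astrocyte and 2 motor neuron libraries, with at most 16.2 and 13.5 CPM, and its log2 fold change of -1.34 (edgeR, adjusted p = 0.783) turned to 0.72 with DESeq2. Tnip1, an A20 partner, was detected in 10 libraries of each cell type (-0.24, SE 0.94). Nfkbib overlaps Sirt2 by 778 bases and Ripk1 overlaps Serpinb6a by 432, both on the opposite strand. Irak4 overlaps Twf1 by 3865 bases on the opposite strand, and Twf1 held 485795 counts against 657, Ikbkg shares 19712 bases with G6pdx, and Myd88 shares 1736 bases with Acaa1a. Nfkb2, with 744 counts, overlaps Psd by 299 bases (777 counts) and AC114539.1 by 1292 bases (227 counts), both on the opposite strand. The strand setting of the counting is not given in the sources used here, so these counts are uncertain.

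Each stimulus was then compared with control within astrocytes, 4 libraries against 4, to ask how the cells given the factors directly differed from the control. The 4 comparisons share the control libraries. With il1a+tnfa, 25 members were tested and edgeR called 0 members and 0 genes (0% of 10444), while 0 members and 93 genes (0.89%) had an unadjusted p under 0.05 and DESeq2 called 0 members and 25 genes. With c1q+c5 it called 0 of 22 members and 0% of 10865 genes, with 0 members and 106 genes (0.976%) at an unadjusted p under 0.05 and 0 members and 40 genes by DESeq2. With il1b+il6 the counts were 0 of 22 members and 0% of 10240 genes in edgeR, 0 members and 119 genes (1.16%) at that unadjusted p, and 0 members and 56 genes by DESeq2. With tgfb2 they were 0 of 23 members and 0% of 10794 genes in edgeR, 0 members and 136 genes (1.26%) at that unadjusted p, and 0 members and 58 genes by DESeq2. Median log2 fold changes of the members tested were -0.25, 0.39, 0.15 and -0.10 in this order, beside -0.08, -0.07, -0.07 and -0.07 over all genes tested. With 4 libraries a side an exact two-sided permutation test of 1 gene cannot go below 0.0286.

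Stat3 had the smallest p among the members with il1a+tnfa and with tgfb2. Control astrocytes held 53.7, 16.9, 17.5 and 23.8 CPM in A to D. The il1a+tnfa libraries held 65.3, 64, 146.8 and 23.0 CPM and the tgfb2 libraries 89.1, 69.2, 49.4 and 36.2 CPM. In il1a+tnfa 3 libraries lay above every control library and D lay among the controls, and in tgfb2 C and D lay below control A. Log2 fold changes were 1.45 (SE 0.66) and 1.19 (SE 0.59), each with an adjusted p of 1 in edgeR, and without C of il1a+tnfa the former was 0.89. In c1q+c5 and il1b+il6, Stat3 was at 27.6, 63, 45.0 and 23.7 CPM and at 5.44, 90.2, 90.1 and 15.2 CPM, overlapping the controls in both.

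Chuk was among the 2 members of smallest p with c1q+c5 and il1b+il6. It measured 30.9, 21.8, 28.4 and 16.1 CPM in control astrocytes. In c1q+c5 it measured 20.2, 86.8, 19.8 and 74.0 CPM, and in il1b+il6 51.0, 56.2, 45.5 and 26.4 CPM. B and D of c1q+c5 were above the controls and A and C among them, whereas in il1b+il6 A, B and C were above. The log2 fold changes were 1.10 (SE 0.70) and 0.90 (SE 0.60), each with an adjusted p of 1 in edgeR. Set against the libraries of its own plate, c1q+c5 and tgfb2, the il1b+il6 value of Chuk was 0.31 (SE 0.73). Birc2, an inhibitor of apoptosis that ubiquitinates RIPK1, was at 22.1, 7.31, 34.6 and 23.1 CPM in control and 23.5, 29.2, 92.7 and 34.1 CPM in c1q+c5, with C of c1q+c5 apart from the rest. Its log2 fold change was 1.07 (SE 0.75), and 0.45 without that library.

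The remaining members of smallest p in astrocytes were lower on average with the stimulus. Tab1, a TAK1-binding subunit, was at 31.3, 16.96, 12.7 and 0.342 CPM in control and 4.59, 1.65, 0 and 0 CPM in il1a+tnfa. Of the controls D lay among the treated libraries, and the log2 fold change was -3.20 (SE 1.79, edgeR adjusted p = 1). Nfkb1 was at 0, 12.1, 43.7 and 0.171 CPM in control and 0, 1.81, 0 and 4.90 CPM in il1b+il6, overlapping at 0, with a log2 fold change of -3.05 (SE 2.42) and of -1.33 (SE 2.04) within the plate. Traf2, an adaptor of TNF receptors, was at 24.1, 7.22, 5.46 and 1.20 CPM in control and at 2.66, 0, 0 and 0 CPM in tgfb2. D of control lay below A of tgfb2, and the fitted log2 fold change was -3.71 (edgeR, adjusted p = 1).

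The 8 astrocyte libraries given an IL-1 were also set against the 12 others. Of 32 members tested edgeR called 0, as it called 0% of 13195 genes, and at an unadjusted p under 0.05 there were 0 members against 585 genes (4.43%). DESeq2 called 0 members and 83 genes. The median log2 fold change was -0.18 over the members tested and -0.05 over all genes. The smallest p belonged to Ptpn11, whose values were 21.04, 16.5, 24.8 and 6.51 CPM in il1a+tnfa and 10.4, 34.4, 38.0 and 16.7 CPM in il1b+il6. In the other groups it was at 10.8, 52.5, 17.8 and 40.5 CPM (control), 55.1, 29.2, 58.6 and 45.3 CPM (c1q+c5) and 44.5, 36.5, 38.2 and 34.8 CPM (tgfb2). Of the 12 libraries without IL-1, 7 lay above every IL-1 library and 5 lay among them, A and C of control included. The log2 fold change was -0.86 (SE 0.43, edgeR adjusted p = 1), and -0.78 (SE 0.44) within plates. Tradd, the adaptor of TNF receptor 1, was seen in 8 astrocyte libraries, with 2.64 CPM in B of il1a+tnfa, 1.01 CPM in B of il1b+il6 and up to 9.01 CPM elsewhere, and had a fitted log2 fold change of -2.60, and of -2.64 within plates.

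The feedback and inducible members were followed in every astrocyte group. Nfkbia was at 20.5, 25.8, 5.83 and 10.3 CPM in control, 4.59, 52.5, 23.9 and 35.5 CPM in il1a+tnfa and 16.5, 40.1, 20.0 and 30.9 CPM in il1b+il6. It was at 20.2, 50.5, 35.4 and 13.6 CPM in c1q+c5 and 19.8, 6.11, 0 and 47.4 CPM in tgfb2. The groups overlapped, and with IL-1 against the rest the log2 fold change was 0.47 (SE 0.66, edgeR adjusted p = 1) and 0.57 (SE 0.68) within plates. Nfkb2 was at 2.67, 7.49, 9.83 and 4.27 CPM in control, 2.68, 0.990, 4.59 and 8.01 CPM in il1a+tnfa and 3.85, 1.61, 2.80 and 4.41 CPM in il1b+il6. In c1q+c5 it was at 10.1, 0.512, 12.95 and 3.70 CPM and in tgfb2 at 2.86, 5.34, 7.21 and 6.53 CPM, for an IL-1 log2 fold change of -0.75 (SE 0.88) and, within plates, -0.75 (SE 0.90). Socs3 was at 19.1, 8.57, 7.28 and 0.342 CPM in control and 0.918, 5.61, 0.917 and 21.5 CPM in il1a+tnfa. In il1b+il6 it had counts in B alone (11.5 CPM), in c1q+c5 it was at 27.6, 0.597, 12.3 and 2.003 CPM and in tgfb2 at 2.25, 3.88, 7.57 and 0 CPM. The groups overlapped, with an IL-1 log2 fold change of -0.55 (SE 1.25), which was 0.38 without the A libraries, -4.06 without the B libraries and -0.64 (SE 1.28) within plates.

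Others of this kind were near the limit of detection in astrocytes. Tnfaip3 was at 0 in all control and c1q+c5 libraries, at 1.84 CPM in C of il1a+tnfa, at 5.21 and 7.84 CPM in C and D of il1b+il6 and at 1.16 and 16.2 CPM in B and C of tgfb2. Nfkbiz was at 0 in all control and il1a+tnfa libraries and at 4.43 and 2.25 CPM in B and C of il1b+il6, against 9.71 CPM in D of c1q+c5 and 2.62 and 5.37 CPM in B and D of tgfb2. The edgeR adjusted p of Nfkbiz was 1, at a fitted log2 fold change of -1.31 and of -0.19 within plates. Bcl3 was seen in B of il1a+tnfa (1.98 CPM) and in A and C of c1q+c5 (6.05 and 23.2 CPM). Birc3 was seen in B of control, c1q+c5 and il1b+il6, at 4.87, 0.597 and 0.201 CPM. Relb was seen in A of c1q+c5 (14.1 CPM) and in B of il1a+tnfa, il1b+il6 and tgfb2 (0.330, 2.22 and 0.97 CPM). Feedback and inducible members with counts that failed the filter were given an exact two-sided permutation test of mean CPM, IL-1 against the rest. Other members that failed the filter were not tested in this way. The exact permutation test gave p = 0.936 for Tnfaip3, 0.747 for Bcl3, 0.747 for Birc3 and 0.902 for Relb. Such p values do not show that the groups were alike.

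Genes outside the members were read from lists of pathway components and targets, in the same astrocyte comparison with IL-1, where 4.43% of all genes had an unadjusted p under 0.05. Of 30 further NF-κB components 22 were tested and edgeR called 0, with 1 at an unadjusted p under 0.05 and 0 called by DESeq2, at a median log2 fold change of 0.02. The smallest p were those of Ecsit (-3.83, SE 1.40), Peli1 (0.53, SE 0.28) and Irak2 (-2.35). Of 30 further JAK-STAT components 24 were tested, 0 were called by edgeR, 0 were under that p and 0 were called by DESeq2, with a median of -0.48 and the smallest p for Ptpn1 (-0.93, SE 0.58), Cntfr (-1.80, SE 1.15) and Stam (-0.71, SE 0.49). Of 24 STAT3 target genes 14 were tested, 0 were called by edgeR, 1 was under that p (Cp, 3.21, SE 1.09) and 0 were called by DESeq2, with a median of -0.14 and Junb (-2.87, SE 1.39) and Pim3 (-2.76) next. Of 7 genes for IL-1 and TNF receptors and their inhibitors 3 were tested, 0 called by edgeR, 1 under that p (Tnfrsf1a, with 38 counts in 3 IL-1 libraries and 57 in 1 of the others, 0.853 and 0.786 CPM pooled) and 1 called by DESeq2. Il1r1, the signalling receptor of IL-1, had 44 counts in 2 astrocyte libraries, B of il1a+tnfa and B of c1q+c5, and 0 in motor neurons.

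Of 35 NF-κB target genes 13 were tested, and 7 had an unadjusted p under 0.05, as had 585 of all 13195 genes (4.43%). Saa3, Ccl5 and Ccl20, with the smallest p, passed the filter only through the IL-1 libraries, where they were high, so this number gives no support for a change over the list. EdgeR called 0 after adjustment and DESeq2 called 3, and with the A to D libraries left out by letter edgeR called 0 or 1 (1 without D). Saa3, an acute-phase serum amyloid, was at 0 in all control and tgfb2 libraries, at 109.2, 196.3, 54.1 and 17.01 CPM in il1a+tnfa and at 26.0, 95.9, 15.9 and 0 CPM in il1b+il6. In c1q+c5 it was at 13.9 CPM in D alone. So 7 of 8 IL-1 libraries had counts against 1 of 12 others (2971 against 90 counts, 66.7 against 1.24 CPM pooled; edgeR, adjusted p = 0.0781). The chemokine Ccl5 was at 50.8, 12.5, 54.1 and 69.1 CPM in il1a+tnfa, at 34.2, 9.06, 0 and 0 CPM in il1b+il6 and at 0 in the 12 others. It was at least 626-fold higher with IL-1 against the floor of 3 counts over the others, and at least 376-fold without A of il1a+tnfa, which held 664 of its 1154 counts (edgeR, adjusted p = 0.113). Ccl20, also a chemokine, was at 105.9, 12.5, 0 and 0 CPM in il1a+tnfa and at 22.9, 22.8, 0.156 and 13.7 CPM in il1b+il6, with 4.29 CPM in A of tgfb2 and 0 elsewhere (edgeR, adjusted p = 0.582). Not all of the list was higher with IL-1. Steap4 had 1 count with IL-1 and 282 in the others, Csf1 had counts in 3 of 8 against 10 of 12 libraries, and Bcl2l1 was at 13.3 against 37.4 CPM pooled. Cxcl10, Tnf and Il1b were at 0 in all astrocyte libraries.

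Marker sums beside these values were as follows. Fibroblast or mesenchyme markers summed to 93.8, 1118, 205.3 and 279.2 CPM in control, 221.4, 241.2, 99.99 and 68.1 CPM in il1a+tnfa and 141.5, 36.9, 138.8 and 202.7 CPM in il1b+il6. They summed to 410.8, 135.3, 90.7 and 194.3 CPM in c1q+c5 and to 446.1, 459.7, 407.5 and 404 CPM in tgfb2, where all 4 libraries lay above every IL-1 library. Of 4 tested, edgeR called 0, 3 had an unadjusted p under 0.05, all lower with IL-1, and DESeq2 called 1. Microglia and macrophage markers summed to at most 16.2 CPM in the IL-1 libraries and 16.4 CPM in the others, with 6 of 12 genes at 0 in all libraries, Ptprc, Aif1 and Trem2 among them. Proliferation markers summed to 848.5 to 1435.0 CPM in the IL-1 libraries, all below the control libraries at 1490.0 to 2004.3 CPM. Their sums were 1045.2 to 1575.9 CPM in c1q+c5 and 769.3 to 1608.7 CPM in tgfb2, overlapping both. Of 8 tested with IL-1 against the rest, edgeR called 0, 0 had an unadjusted p under 0.05 and DESeq2 called 0. The part of fibroblast transcripts or of proliferating cells in the target gene values was not tested.

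**Figure D2:**
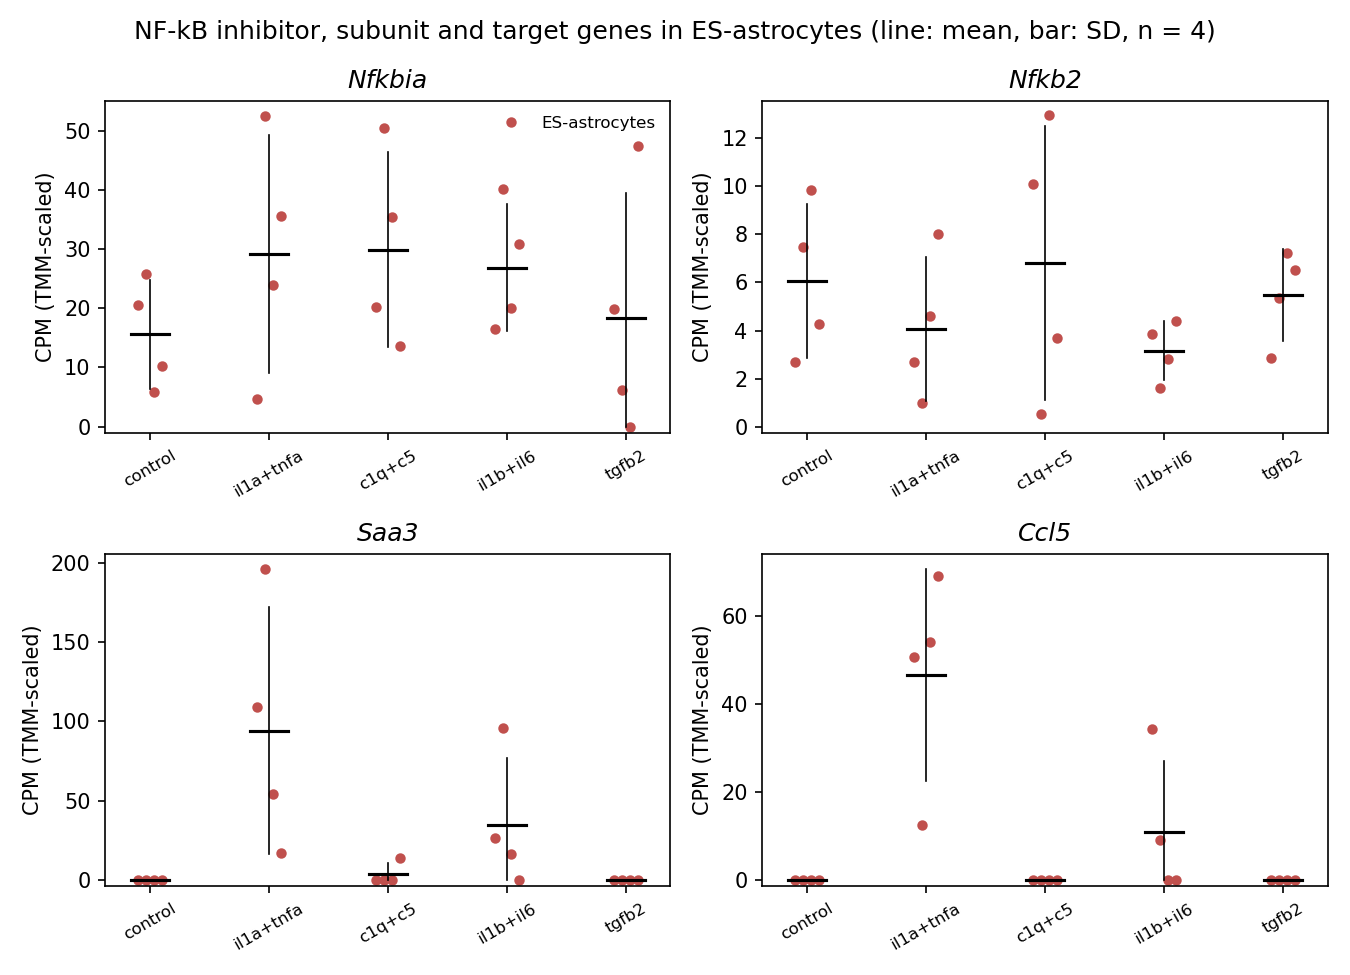
CPM of Nfkbia, Nfkb2, Saa3 and Ccl5 in each astrocyte library by treatment; points are libraries A to D, the line is the mean and the bar the SD (n = 4), with its lower end stopped at 0. Saa3 and Ccl5 were at 0 in all control libraries and reached 196.3 and 69.1 CPM with il1a+tnfa, while the groups of Nfkbia and Nfkb2 overlapped.

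In motor neurons the same comparisons asked whether cells that met the factors through the treated co-culture differed from the control. Depth limited them: 6 members were tested with il1a+tnfa, 13 with c1q+c5, 18 with il1b+il6 and 16 with tgfb2. With il1a+tnfa edgeR called 0 members and 0% of 4479 genes, 0 members and 143 genes (3.19%) were under an unadjusted p of 0.05, and DESeq2 called 0 members and 1 gene. With c1q+c5 edgeR called 0 members and 0% of 7348 genes, 0 members and 322 genes (4.38%) were under that p, and DESeq2 called 0 members and 0 genes. With il1b+il6 edgeR called 0 members and 0% of 8327 genes, 0 members and 98 genes (1.18%) were under that p, and DESeq2 called 0 members and 1 gene. With tgfb2 edgeR called 0 members and 0.0126% of 7947 genes (1 gene), 2 members and 221 genes (2.78%) were under that p, and DESeq2 called 0 members and 17 genes. Median log2 fold changes of the members tested were 0.15, -0.17, -0.07 and 0.40, beside 0.03, -0.06, -0.01 and -0.00 over all genes.

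Chuk and Nfkbia were the 2 members under that p with tgfb2. Chuk was at 71.3, 37.4, 118.4 and 44.7 CPM in control and at 28.9, 25.6, 43.4 and 17.95 CPM in tgfb2. C of tgfb2 lay above control B and the other 3 lay below all controls. The log2 fold change was -1.24 (SE 0.54, edgeR adjusted p = 0.999), and without control C, a shallow library, it was -0.79. With il1a+tnfa Chuk was at 17.7, 45.2, 50.7 and 43.1 CPM (log2 fold change -0.59, SE 0.56), and with c1q+c5 at 0, 4.77, 42.9 and 59.1 CPM (-0.95, SE 0.61). Both overlapped the controls. Nfkbia was at 5.42, 4.28, 3.82 and 13.3 CPM in control, 8.26, 34.5, 44.8 and 10.3 CPM in tgfb2 and 31.3, 0, 16.9 and 33.5 CPM in il1b+il6. B and C of tgfb2 and A, C and D of il1b+il6 were above every control library. The log2 fold changes were 1.83 (SE 0.87, edgeR adjusted p = 0.999) with tgfb2 and 1.64 (SE 0.96, edgeR adjusted p = 1) with il1b+il6, and the latter was 0.46 (SE 0.82) within the plate. In the remaining groups Nfkbia was at 64.8, 10.8, 16.9 and 0 CPM (il1a+tnfa) and at 0, 20.7, 1.02 and 9.50 CPM (c1q+c5).

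Other motor neuron members of smallest p were kinase-level components. Map3k7 was at 36.1, 21.4, 15.3 and 65.2 CPM in control, 0, 18.3, 14.3 and 20.4 CPM in c1q+c5 and 14.7, 33.8, 21.5 and 20.1 CPM in il1b+il6. The groups overlapped, with log2 fold changes of -1.03 (SE 0.69) and -0.74 (SE 0.71), and of -0.21 (SE 0.64) for il1b+il6 within the plate. Tab2, which links TAK1 to ubiquitin chains, was at 37.0, 38.1, 11.5 and 17.1 CPM in control and at 23.6, 8.61, 57.5 and 34.5 CPM in il1a+tnfa. C of il1a+tnfa was the highest, and the log2 fold change of 0.38 (SE 0.68) was -0.20 without it.

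With IL-1 against the rest in motor neurons, edgeR called 0 of 19 members and 0% of 9479 genes. At an unadjusted p under 0.05 there were 0 members and 526 genes (5.55%), and DESeq2 called 0 members and 0 genes. The median log2 fold change was -0.06 over members tested and -0.02 over all genes. Nfkb2 was at 0, 3.48 and 11.3 CPM in the 8 IL-1 libraries and 0, 5.71 and 37.6 CPM in the 12 others (lowest, median, highest), with a log2 fold change of -1.40 (SE 0.94, edgeR adjusted p = 0.943) and -1.17 (SE 0.95) within plates. Nfkbib was at 0.903, 13, 7.64 and 0 CPM in control, 47.1, 8.61, 6.76 and 0 CPM in il1a+tnfa and 21.1, 11.3, 4.57 and 0 CPM in il1b+il6. It was at 0, 1.59, 3.07 and 5.63 CPM in c1q+c5 and 4.13, 11.9, 0.701 and 12.8 CPM in tgfb2. Both A libraries given an IL-1 stood high, and the log2 fold change of 1.27 (SE 0.85, edgeR adjusted p = 0.943), 1.25 (SE 0.87) within plates, was -0.15 without the A libraries. Nfkbia had a log2 fold change of 0.91 (SE 0.63) and of 1.10 (SE 0.65) within plates. The feedback genes were mostly at 0: Tnfaip3 had counts in A of control (13.5 CPM) and D of c1q+c5 (0.352 CPM), Bcl3 in A of il1a+tnfa and A of il1b+il6, Birc3 in A of il1b+il6 and B of tgfb2, and Relb in none. Socs3 had counts in 7 libraries with at most 8.61 CPM and Nfkbiz in 5 with at most 7.74 CPM. Exact two-sided permutation tests gave p = 0.747 for Tnfaip3, 0.615 for Nfkbiz, 0.147 for Bcl3, 0.4 for Birc3, 0.4 for Socs1 and 0.642 for Socs3.

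Whether a stimulus acted differently in the cell types was tested as an interaction. For il1a+tnfa edgeR called 0 of 27 members and 0% of 11161 genes, with 1 member and 297 genes (2.66%) under an unadjusted p of 0.05 and 0 members and 0 genes by DESeq2. Chuk had the smallest p, with astrocyte values of 67.5, 46.2, 41.7 and 27.0 CPM in il1a+tnfa against the control values above, and the motor neuron values given before. It was higher in 3 of 4 treated astrocyte libraries than in any control, and no treated motor neuron library exceeded the second highest control. The difference of log2 fold changes was -1.73 (SE 0.78, edgeR adjusted p = 1), and the next was Ikbkg, the IκB kinase scaffold NEMO (-1.78, SE 1.02). For il1b+il6 edgeR called 0 of 30 members and 0% of 12104 genes, with 1 member and 552 genes (4.56%) under that p and 0 members and 19 genes by DESeq2. That member was Myd88, the adaptor of IL-1 and Toll-like receptors, at 8.12 and 30.6 CPM in A and C of control astrocytes, at 0 in il1b+il6 astrocytes, and in A alone of both motor neuron groups (3.61 and 2.03 CPM). With a group at 0 its fitted difference is no measure of size (edgeR, adjusted p = 0.97), and the next was Tyk2 (edgeR, adjusted p = 1).

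Between the cell types, the other lists gave the following counts. NF-κB components had 0 of 21 called by edgeR and 0 by DESeq2, with 1 at an unadjusted p under 0.05 (Tnip2, -2.96, then Commd1 and Traf3), and a median log2 fold change of -0.12. JAK-STAT components had 1 of 24 called, Ifngr2, a receptor chain of interferon γ, higher in motor neurons (1.14, SE 0.29, edgeR adjusted p = 0.00312), with Grb2 (0.92, SE 0.31) and Cish (2.28) next and a median of -0.05, and DESeq2 called 1. Among receptors Il1rap, the accessory chain of the IL-1 receptor, was called higher in motor neurons (2.67, edgeR adjusted p = 0.0163), 1 of 2 tested, and DESeq2 called 1. NF-κB target genes had 7 of 12 called lower in motor neurons by edgeR, 0 by DESeq2 and 1 without the shallow libraries, led by Saa3, Ccl5, at least 213-fold lower (102-fold without A of il1a+tnfa astrocytes), and Ccl7. Counts of these 3 lay mainly in astrocyte libraries given an IL-1, through which they passed the filter, so the number called gives no support for a difference over the list. The Ccl5 folds use a floor pooled over motor neuron libraries of all treatments. In the il1a+tnfa motor neuron libraries A to D, all shallow, 3 counts were 17.7, 6.46, 10.2 and 25.9 CPM. Within that treatment the values of 0 therefore set a much weaker limit than these folds. Fibroblast or mesenchyme markers were lower in motor neurons for 3 of 3 tested by edgeR and by DESeq2, a number with the same limit, with Col1a2, Lum and Postn at 0 there and the sums given above, and their part in the target gene values was not tested. STAT3 target genes had 4 of 16 called lower by edgeR, Ccnd1, a cyclin (-5.73, SE 0.32), Pim1 (-1.73, SE 0.35), Fos and Cp, and DESeq2 called 4. Cp needed the astrocyte libraries to pass the filter, so this number too gives no support for a difference over the list. Over all genes, edgeR called 14.9% (11% lower), 28.4% had an unadjusted p under 0.05, DESeq2 called 1846 of 13894 genes, and edgeR without the shallow libraries called 1641 of 15721.

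Promoter windows of 300 bases around the start of each gene, from RefSeq (GRCm38.p6), were matched for 33 of 40 members, in 45 windows, and were searched on both strands. The kappaB motif was found in 14 of the 45 windows (31.1%, 11 genes, among them Nfkbia, Nfkb2, Tnfaip3 and Bcl3), against 8.46% of 32851 windows of all genes. The STAT motif GAS, spelled TTCNNNGAA, was found in 6 (13.3%; Chuk, Myd88, Nfkb2, Ripk1, Socs3 and Tnip1) against 8.3%. Of the 35 NF-κB target genes 24 were matched, Ccl5 not among them, and 12 of their 27 windows (44.4%) held kappaB. Of the members, entries for Tab1, Socs2, Nfkbiz, Relb, Tradd, Nfkb1 and Ikbkb were missing. These 3 windows are shown, chosen after the values were seen, for the inhibitor gene followed above and for the target genes Saa3 and Ccl20 that had counts mainly with IL-1: Nfkbia at chr12:55492598-55492897 (minus strand), Ccl20 at chr1:83116516-83116815 (plus strand) and Saa3 at chr7:46715627-46715926 (minus strand). Capitals mark kappaB matches, 1 each in Nfkbia and Ccl20 and 0 in Saa3, and GAS had 0 in each. A match describes letters and no binding.
Nfkbia: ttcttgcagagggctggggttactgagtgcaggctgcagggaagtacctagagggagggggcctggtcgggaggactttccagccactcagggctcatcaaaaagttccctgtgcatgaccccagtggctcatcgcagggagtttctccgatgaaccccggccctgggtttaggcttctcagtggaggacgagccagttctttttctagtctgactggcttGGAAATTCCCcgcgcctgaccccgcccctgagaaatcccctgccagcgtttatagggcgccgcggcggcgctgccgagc
Ccl20: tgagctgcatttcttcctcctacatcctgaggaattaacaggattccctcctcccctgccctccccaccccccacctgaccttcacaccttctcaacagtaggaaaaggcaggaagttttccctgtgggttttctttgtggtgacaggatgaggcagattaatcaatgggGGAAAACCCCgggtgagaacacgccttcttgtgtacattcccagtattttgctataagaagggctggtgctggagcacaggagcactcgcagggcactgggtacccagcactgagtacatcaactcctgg
Saa3: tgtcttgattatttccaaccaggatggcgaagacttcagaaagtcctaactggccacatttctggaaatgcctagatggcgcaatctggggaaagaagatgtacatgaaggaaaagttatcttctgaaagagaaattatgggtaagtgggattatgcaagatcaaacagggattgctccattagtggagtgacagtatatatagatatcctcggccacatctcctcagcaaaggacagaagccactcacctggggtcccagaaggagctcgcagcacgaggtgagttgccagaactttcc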

How the data were processed

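Each of the 40 libraries held about 200 sorted cells, and the authors deposited 1 table of gene-level read counts, not normalized. Reads were aligned with STAR at the sequencing facility, and the submitters' notes also name DESeq2. Versions of STAR and DESeq2, the counter, use of strand, annotation release and build were each not given in the sources used here. Gene identifiers were named with GENCODE M21 (55227 of 55487; 260 genes with 0.117% of the counts stayed unnamed), which also gave coordinates and exon lengths. No column was left unmatched to a sample.

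Counts were tested with edgeR 4.0.16 in R 4.3.3 (filterByExpr on the groups, TMM, robust quasi-likelihood fit and test), with Benjamini-Hochberg adjustment over all genes tested. Calls needed an adjusted p no higher than 0.05 together with a log2 fold change beyond 1 in either direction. Every adjusted p given is edgeR's unless DESeq2 is named. The SE is the log2 fold change divided by the square root of F, and is not given where 1 side of a comparison had counts in less than 50% of its libraries or where a Poisson bound set the p; there the fitted value is no measure of size. Scripts were tested on simulated counts with the same dispersion for every gene. That checked the code, and not the power or error rate of the test in these sparse libraries. CPM were scaled by TMM, and levels between genes were divided by exon length. A count of 0 was given a limit of 3 counts, which over a group is the floor for folds. With IL-1 against the rest, feedback and inducible members that had counts and failed the filter were tested on mean CPM by exact permutation, two-sided. Other members that failed a filter were not tested in this way. Alternatives were DESeq2 1.42.0, RLE scaling, no filter and a stricter one (minimum count 30), blocks, fits without shallow libraries and fits without each letter. Tables and plots were made with matplotlib 3.10.9, scipy 1.17.1, numpy 2.4.6 and pandas 2.3.3 under Python 3.11.15.

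The members and lists were chosen with earlier results of these data known. Values are given for members called in any comparison and for the 2 members of smallest p in each stimulus comparison. They are also given for the feedback and inducible members Nfkbia, Tnfaip3, Nfkbiz, Bcl3, Birc3, Nfkb2, Relb, Socs1 and Socs3. The 3 highest and 3 lowest levels per kb in each cell type are given as well. These values are given by library, as a range or highest value, or as a test result alone. For other lists, their counts and the 3 genes of smallest p are given.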

Additional observations from a re-analysis of the deposited data

Results flagged for a closer look

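Within each group of 4 libraries, a library was listed when its gap to the nearest of the others was a large share of the group's whole range, for total counts and for the CPM of 25 members: those called or under an adjusted p of 0.05 between the cell types, the 2 of smallest p in each stimulus comparison, and the feedback and inducible members. Other members were not searched. Chance lists about 1 in 20 groups in this way when values are spread normally. Of 212 groups 66 were listed, and in 47 of these no other library of the group had counts of the gene. A lone library with counts is always listed, so the chance rate does not apply to these values.

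Total counts stood apart in A of il1a+tnfa astrocytes (14831839), B of control motor neurons (19717324) and B of tgfb2 motor neurons (12606121). Nfkb1 stood apart in astrocytes in D of c1q+c5 (13.1 CPM) and in motor neurons in D of control (16.7), A of il1b+il6 (2.34) and A of tgfb2 (8.26). Relb did so in astrocytes in A of c1q+c5 (14.1) and in B of il1a+tnfa (0.330), il1b+il6 (2.22) and tgfb2 (0.97). Nfkbia stood apart in motor neurons in D of control (13.3), and Nfkbib in astrocytes in A of control (62.2), C of il1b+il6 (25.4) and A of tgfb2 (6.33). For Nfkbiz it was D of c1q+c5 in astrocytes (9.71) and A of il1b+il6 in motor neurons (5.64). Bcl3 was apart in astrocytes in B of il1a+tnfa (1.98) and in motor neurons in A of il1a+tnfa (11.8) and A of il1b+il6 (0.127). Ikbkg was apart in B of c1q+c5 astrocytes (56.9), Tab2 in D (73.8) and Birc2 in C (92.7) of the same group, and Tab1 in D of control motor neurons (30.9).

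Traf2 values apart were 6.63 CPM in D of c1q+c5, 1.41 in B of il1b+il6 and 2.66 in A of tgfb2 in astrocytes, and 6.36 in B of c1q+c5, 6.84 in A of il1b+il6 and 0.855 in D of tgfb2 in motor neurons. Tradd values apart in astrocytes lay in B of c1q+c5 (6.74), il1a+tnfa (2.64) and il1b+il6 (1.01), and in motor neurons in B of control (6.53), A of il1a+tnfa (11.8), A of il1b+il6 (0.760) and B of tgfb2 (1.54). Myd88 was apart in astrocytes in D of c1q+c5 (1.39) and B of il1a+tnfa (5.28), and in motor neurons in A of control (3.61), B of il1a+tnfa (10.8), A of il1b+il6 (2.03) and D of tgfb2 (8.55). Birc3 was apart in B of c1q+c5 (0.597), control (4.87) and il1b+il6 (0.201) in astrocytes and in A of il1b+il6 (0.887) and B of tgfb2 (0.0855) in motor neurons. Tnfaip3 was apart in C of il1a+tnfa (1.84) and of tgfb2 (16.2) in astrocytes and in D of c1q+c5 (0.352) and A of control (13.5) in motor neurons.

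Tyk2 stood apart in astrocytes in A of control (1.07) and in B of c1q+c5 (9.97), il1a+tnfa (2.97) and il1b+il6 (15.5), and in motor neurons in C of il1a+tnfa (3.38) and A of il1b+il6 (1.71). Stat5a did so in astrocytes in B of il1a+tnfa (3.96), D of il1b+il6 (6.37) and D of tgfb2 (15.2). Among the SOCS genes, motor neurons of il1b+il6 had A apart for Socs1 (0.634), Socs2 (105.4) and Socs3 (4.18), and Socs3 was also apart in B of il1b+il6 astrocytes (11.5) and in D of control motor neurons (1.43).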

How the results depend on the processing

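The count of 2 members called between the cell types was 1 with DESeq2, 1 with the stricter filter, 1 with treatment and letter as a replicate block, 0 with the control libraries alone and 1 to 3 with a letter left out. Members gained were Nfkb1 without A, Stat5b with RLE scaling and Relb with no filter. Over all genes the count of 1972 was 228 with the control libraries alone. For NF-κB target genes with IL-1 in astrocytes (0 called by edgeR), it was 3 with DESeq2, 1 with no filter, 2 with all libraries fitted together, 0 to 1 with a letter left out and 0 within plates. The counts over the pathway lists and the plate alternatives were added after seeing the data. In the other comparisons, every alternative that could be fitted called 0 members. Over all genes, edgeR against DESeq2 called 0 against 25 (il1a+tnfa), 40 (c1q+c5), 56 (il1b+il6), 58 (tgfb2) and 83 (IL-1) in astrocytes, 0 against 1 (il1a+tnfa and il1b+il6) and 1 against 17 (tgfb2) in motor neurons, and 0 against 19 for the interaction with il1b+il6. Of single members in the cell type comparison, Socs2 was at 1.63 and not called with control libraries alone, Stat5a at -1.13 with DESeq2 and -4.14 with treatment and letter as a block, and Ptpn11 was called at -0.89 by adjusted p alone.

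Log2 fold changes turned sign as follows. Between the cell types, Tnfaip3 (-1.34) was at 0.72 with DESeq2 and 1.02 without shallow libraries. Nfkbiz (-0.02) was at 1.22 with DESeq2, 0.25 with the replicate block, 0.31 without shallow libraries and -0.93 to 0.66 with a letter left out (0.39, 0.11 and 0.66 without B, C and D). Nfkb2 (0.37) was at -0.30 with control libraries alone and -0.059 to 0.91 with a letter left out. With IL-1 in astrocytes, Nfkbiz (-1.31) was at 0.22 with the replicate block, and Socs3 (-0.55) at -4.06 to 0.38 with a letter left out (0.08 without C). In motor neurons, Nfkbib (1.27) was at -0.15 to 1.82, and Tab2 with il1a+tnfa (0.38) at -0.20 to 0.78. The cause was not tested. Of the other values of single members, 277 under other settings and 197 with a library left out kept their direction and their side of the threshold.

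The letters A to D occur in every group. Over 52 pairs of libraries with the same letter, deviations from the group means correlated at -0.241 to 0.427 (median 0.011), with 4 pairs above 0.1 and 18 in which the library correlated best with its own letter. They were therefore fitted as sharing only a letter, and each replicate was a vial of ES cells by the study's definition, but whether a letter names the same vial in every group was not stated. With the letter as a replicate block 2 members were called between the cell types and 0 in each other comparison.

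The fits without shallow libraries could not be made for il1a+tnfa or IL-1 in motor neurons, nor for the interaction with il1a+tnfa. Depth limits the motor neuron comparisons: with 6557 counts in the shallowest library, A of c1q+c5, a value of 0 there allows up to 202 CPM.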
